A study of Rattus norvegicus with 20 samples.

Results

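Tankyrase 1 (*Tnks*), tankyrase 2 (*Tnks2*) and the core genes of the β-catenin destruction complex were examined in the medial prefrontal cortex (mPFC) of rats treated for a long period with LSD. The members were chosen by gene symbol from the count matrix: *Tnks*, *Tnks2*, *Apc*, *Axin1*, *Axin2*, *Ctnnb1*, *Gsk3b*, *Tcf7l2* and *Lrp6*. They were picked because *Tnks* reads were higher in LSD-treated rats and because *Tnks* follows *Tcf4* across rats, so the LSD contrast and the relation of *Tnks* with other genes are described for the members and support nothing. Where a member is called or not called, this only lists its place in the fit across all genes. Of the 9 symbols, 8 had a row that was analysed and 7 passed the filter on low counts, among 31038 genes in the matrix and 16605 genes tested. *Axin1* was not analysed here.

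The cohort comprised 20 male Sprague-Dawley rats, 10 given LSD at 0.16 mg/kg and 10 given sterile saline, injected intraperitoneally every other day for 90 days. They were 6 to 8 weeks old when treatment began, were housed singly, and received no other agent. The labels place tissue collection 3 weeks after the last injection, whereas the study's methods give a somewhat longer interval and a slightly older starting age. Each library holds poly(A)-selected RNA from the mPFC of a single hemisphere of 1 rat, so only males, 1 dose and 1 late time point were sampled, and nothing here describes the drug's acute effect. Because the tissue is bulk cortex, a change in the number of cells of a type and a change in RNA per cell cannot be told apart.

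Tankyrases are enzymes that attach poly(ADP-ribose) chains to target proteins, and their best known target in Wnt signalling is Axin, the scaffold of the destruction complex, which is then ubiquitinated and degraded. In that complex Axin and APC hold β-catenin (*Ctnnb1*) so that casein kinase 1 and GSK3β (*Gsk3b*) phosphorylate it and mark it for degradation. When a Wnt ligand binds a Frizzled receptor and the co-receptor LRP6 the complex is inhibited, β-catenin accumulates and enters the nucleus, and with TCF/LEF factors such as TCF7L2 it switches on target genes, among them the negative regulator *Axin2*. In neurons β-catenin also sits at synaptic adherens junctions, and GSK3β is known as an enzyme inhibited by lithium. The transcription factor gene *Tcf4* named above encodes an E-protein and is a different gene from *Tcf7l2*, whose product is also often called TCF-4.

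The start-site window of *Axin2* is shown because this gene is the member most often read as the output of β-catenin and TCF/LEF. The sequence is RefSeq's, in the rat assembly GRCr8, plus strand, chr10:94398535-94398834, and runs from 250 bases before to 50 bases after the annotated start. Capitals mark a single form of the TCF/LEF core, the letters CTTTGAT, which were searched on both strands (the reverse complement is ATCAAAG). Other forms of the core, such as the CTTTGAA near the 5′ end of this window, were not searched, marked or counted.

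Axin2: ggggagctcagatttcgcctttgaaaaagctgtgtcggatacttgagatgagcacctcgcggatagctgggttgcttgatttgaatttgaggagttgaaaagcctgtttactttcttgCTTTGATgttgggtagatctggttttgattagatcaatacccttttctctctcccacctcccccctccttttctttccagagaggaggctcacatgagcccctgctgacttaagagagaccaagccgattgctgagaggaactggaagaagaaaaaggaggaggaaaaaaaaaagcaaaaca

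The window held 1 match, at bases 119 to 125 counted from its 5′ end. Such a match was found in 1216 of 33469 windows of the same length, or 3.63% of them. Windows were at hand for 6 members, and those of *Tnks2*, *Apc*, *Ctnnb1*, *Gsk3b* and *Tcf7l2* did not contain these letters on either strand. A match describes the sequence alone and no binding was measured.

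Libraries held between 11098076 and 25552681 reads on named genes, 16346629 to 25552681 in LSD and 11098076 to 24201351 in saline. Levels are given as normalised RPM, the RPM unit of the study after TMM scaling, which allows rats to be compared for one gene but not genes with each other, since transcript length is not removed. Cortical and neuronal markers were well represented, and of 6 choroid plexus markers *Otx2* was at 0 with a summed level between 2.23 and 6.48 normalised RPM over all LSD rats and between 2.61 and 6.19 over saline rats. Summed striatal markers ranged from 201 to 435 in LSD and from 230 to 609 in saline. All 6 striatal markers had negative log2 fold changes, from −1.06 to −0.27 with a median of −0.71, and 0 of 6 were called (edgeR, adjusted p from 0.067 to 0.11). Summed mature oligodendrocyte markers ranged from 2232 to 5761 in LSD, median 3853, and from 2195 to 7479 in saline, median 4751. Their log2 fold changes ran from −0.48 to −0.22 with a median of −0.35, again with 0 of 6 called (edgeR, adjusted p from 0.072 to 0.48). Of 61 markers tested 4 were called higher in LSD (*Rorb*, *Slc1a2*, *Itpr2* and *Ptprz1*) and 2 lower (*Tubb3* and *Olig1*), all 6 named after their values were seen. One control library, saline rat 9, stood apart from its group. Its long-gene index, the mean log2 deviation of the third of genes with the longest genomic span minus that of the third with the shortest, was −0.311, when the other saline rats reached no lower than −0.141. The members' fold changes, the pathway counts, the index and most correlations are therefore also given without this rat. Correlations with marker sums, those with the index removed and the counts of genes that follow *Tnks* are given only with it included.

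*Tnks* was at a higher level in LSD-treated rats than in controls. In the LSD group its level was 68.5 normalised RPM at the lowest, 81.5 at the median and 86.6 at the highest, from 1276 to 1974 reads a library. In saline the lowest value was 33.8, the median 66.4 and the highest 74.4, from 671 to 1450 reads. All 10 LSD rats lay above the saline median and 8 lay above every saline rat, so the groups overlapped only through LSD rats 7 and 9. The means were 79.7 ± 6.10 in LSD and 63.6 ± 12.2 in saline (SD, n = 10 each), a log2 fold change of 0.33 ± 0.098 (SE), or a 1.25-fold ratio. Without saline rat 9 the log2 fold change was 0.25 ± 0.059.

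*Tnks2*, the other tankyrase gene, had 4 reads in the whole data set, 1 in an LSD rat and 1 in each of 3 saline rats. In a library without a read, a count of 0 allows up to 3 reads, which corresponds to between 0.117 and 0.270 RPM depending on the library and covers counting error only. The annotation used for counting is not given in the sources used here, and whether it covered the transcript was not tested, so the low count is not read as a lack of expression. No fold is given, and the gene was below the filter.

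**Figure D1:**
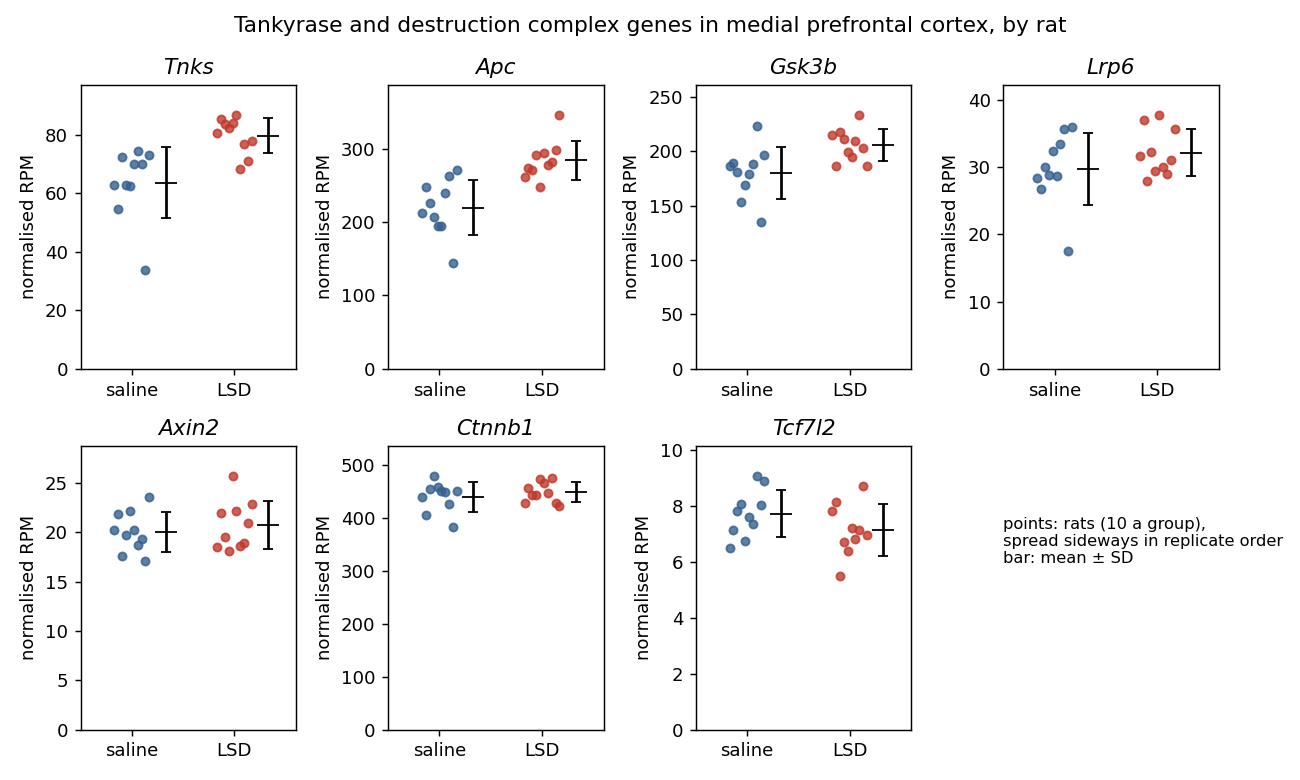
Normalised RPM (y axis, starting at 0 and scaled for each gene) of the 7 member genes that passed the filter, by treatment (x axis). Each point is 1 rat, 10 a group, and the bar beside the points is the mean ± SD. *Tnks* and *Apc* show 8 LSD rats above every saline rat, *Ctnnb1* and *Axin2* show groups on top of each other, and the low saline point for *Tnks*, *Apc*, *Gsk3b* and *Lrp6* is saline rat 9.

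*Apc* encodes the scaffold that holds β-catenin in the complex and that also binds microtubules. Its level ran from 247 normalised RPM through a median of 279.7 to 345 in LSD, and from 145 through a median of 219 to 270.3 in saline. As for *Tnks*, 10 of 10 LSD rats exceeded the saline median and 8 exceeded every saline rat. The highest value belonged to LSD rat 10 and the lowest to saline rat 9. The log2 fold change was 0.37 ± 0.086 (SE), a 1.29-fold ratio, and 0.32 ± 0.069 without saline rat 9.

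*Gsk3b*, the kinase gene of the complex, showed a smaller difference. LSD values lay between 186 and 233 with a median of 206, and saline values lay between 135 and 223 with a median of 184. All 10 LSD rats were above the saline median but 1 was above every saline rat, and saline rat 8 was itself above the LSD median. The log2 fold change was 0.19 ± 0.068, not called, and 0.15 ± 0.058 without saline rat 9, also not called. It was called in 6 of 29 alternative fits. Of these, 3 left out saline rat 2, saline rat 8 or saline rat 10, with log2 fold changes of 0.20, 0.23 and 0.21. The others were DESeq2, the study's own test (0.19), scaling by total counts (0.23) and a block for replicate number (0.20).

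The co-receptor gene *Lrp6* was not called. Its LSD rats ranged from 27.9 to 37.7 normalised RPM around a median of 31.3, and saline rats from 17.5 to 36.0 around 29.4, and 7 of 10 LSD rats were above the saline median. The log2 fold change was 0.11 ± 0.095, and 0.05 ± 0.069 without saline rat 9, whose 17.5 was the lowest value of all 20 rats.

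*Ctnnb1*, which encodes β-catenin itself, was nearly level between the groups. LSD rats ranged from 423 to 474 around a median of 445, and saline rats from 383 to 478 around 449. Among LSD rats 4 of 10 were above the saline median. The means were 448 ± 18.8 and 439 ± 27.6 (SD, n = 10), and the log2 fold change of 0.03 ± 0.043 was below its own error, as was the 0.0078 ± 0.039 without saline rat 9. With at least 4940 reads in every library, this was the most deeply counted member.

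*Axin2*, the feedback regulator, and *Tcf7l2*, the TCF/LEF factor, were not called. *Axin2* lay between 18.1 and 25.7 in LSD with a median of 20.2, and between 17.1 and 23.6 in saline with a median of 19.99, giving a log2 fold change of 0.05 ± 0.071, and 0.02 ± 0.070 without saline rat 9. *Tcf7l2* was the one tested member with a negative value. Its levels were 5.49 to 8.73 in LSD, median 7.05, against 6.50 to 9.08 in saline, median 7.72, with 3 of 10 LSD rats above the saline median. The log2 fold change was −0.12 ± 0.083, and −0.11 ± 0.086 without saline rat 9, on 73 to 206 reads a library, the fewest among tested members.

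Of the 7 members in the fit 2 were called at an adjusted p of 0.05, *Tnks* and *Apc*, both higher in LSD, and 5 were not. Across all 16605 genes 15.0% passed, 6.48% higher and 8.54% lower in LSD. The rule used this same contrast, so nothing is read from the members' count. Their median log2 fold change was 0.11 and 6 of 7 were positive, beside a median of 0.0022 and 50.4% positive over all genes tested. Scaling by total counts raised the median of all genes by 0.045 on the log2 scale and changed no member's direction.

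**Figure D2:**
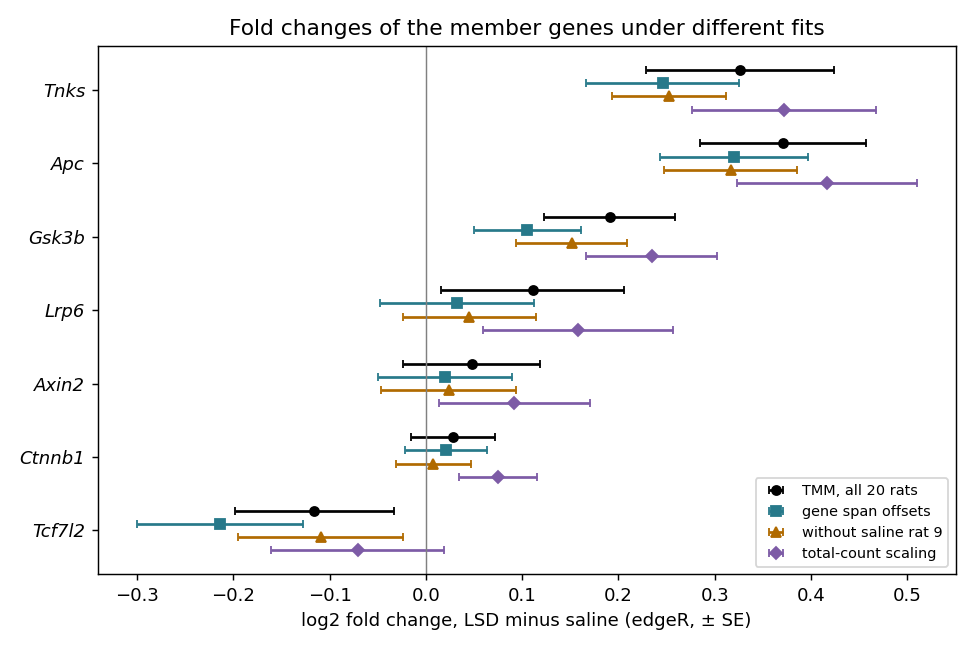
Log2 fold changes of LSD over saline (x axis) for the 7 tested members (y axis), with SE bars, under 4 edgeR fits: the TMM fit on all 20 rats, a fit with offsets for gene span, a fit without saline rat 9, and a fit scaled by total counts. *Tnks* stayed between 0.25 and 0.37 and *Apc* between 0.32 and 0.42 in these fits, while *Ctnnb1* reached 0.07.

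The other genes of the pathway were taken from 9 lists, of which 153 genes passed the filter. In all, 12 were higher in LSD, 13 were lower and 128 did not pass, so that 16.3% were called beside 15.0% of all genes, a share close to the background. Their median log2 fold change was −0.01. Without saline rat 9 the lists gave 10 higher and 10 lower, and 9 of the 12 and 8 of the 13 genes were still called. The split depended on scaling: with total counts in place of TMM, 20 were higher and 5 lower, and over all genes the called genes were 36.3% lower in place of 56.9%. None of the 25 called genes changed direction under the alternatives in which it was fitted, which were 29 for 24 of them and 27 for *Aes*, which has no span. Of these genes 6 were called in every alternative.

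Among poly(ADP-ribose) polymerase genes other than the tankyrases, 1 of 14 was higher and 0 lower in LSD. This was *Parp8*, whose log2 fold change was 0.18 ± 0.059 (adjusted p = 0.040, edgeR's quasi-likelihood test), and it was called in 13 of 29 alternatives and lost without saline rat 9. *Parp6*, the list's gene of highest level, gave −0.06 ± 0.044.

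Of 12 genes for tankyrase partners and substrates 3 were higher and 0 lower, and the list's median was 0.13 on the log2 scale. *Amot*, which encodes the scaffold angiomotin, a tankyrase target, ranged from 31.0 to 37.6 normalised RPM in LSD, median 35.3, and from 21.9 to 35.2 in saline, median 29.5. Its log2 fold change was 0.24 ± 0.067 (adjusted p = 0.019, edgeR), and all 10 LSD rats were above the saline median. *Usp25*, a deubiquitinase known to stabilise tankyrases, rose by 0.22 ± 0.060 (adjusted p = 0.020, edgeR), with 7 LSD rats above every saline rat. With offsets for gene span *Usp25* gave 0.13 ± 0.049 and was not called (adjusted p = 0.076, edgeR). *Lnpep*, which encodes the insulin-regulated aminopeptidase that tankyrase binds, rose by 0.66 ± 0.19 on the log2 scale (adjusted p = 0.025, edgeR) at a low level, 2.11 ± 0.4661 normalised RPM in LSD against 1.35 ± 0.504 in saline (SD, n = 10). *Numa1*, a spindle protein gene and the list's highest in level, gave 0.13 ± 0.066 and did not pass.

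The list of other destruction complex and degradation genes also holds genes that oppose the complex, such as *Frat1* and *Frat2*. Of its 31 genes 3 were higher and 4 lower in LSD. *Usp34*, a deubiquitinase that acts on Axin, was the highest-ranked by p: LSD rats ranged from 87.9 to 110.2 with a median of 98.0, and saline rats from 51.0 to 91.2 with a median of 74.4. Its log2 fold change was 0.37 ± 0.082 (adjusted p = 0.0083, edgeR), 8 LSD rats were above every saline rat, and it was called in 29 of 29 alternatives. *Frat1* and *Frat2*, paralogous genes for GSK3-binding proteins that oppose β-catenin phosphorylation, were both lower. *Frat1* had 10.5 to 12.7 in LSD, median 11.3, and 11.2 to 16.97 in saline, median 13.6, a log2 fold change of −0.29 ± 0.066 (adjusted p = 0.0085, edgeR). *Frat2* gave −0.28 ± 0.080 (adjusted p = 0.023, edgeR), and for both genes 10 of 10 LSD rats were below the saline median. Reads shared between these paralogs could not be assigned with certainty.

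*Ppp2r5d*, a regulatory subunit of protein phosphatase 2A, fell by 0.16 ± 0.046 on the log2 scale (adjusted p = 0.022, edgeR). The scaffold subunit *Ppp2r1a*, highest in level of this list, gave −0.13 ± 0.055 and did not pass. The remaining 3 called genes of the list encode casein kinase 1 isoforms and are named after their values were seen. *Csnk1a1*, the isoform that primes β-catenin for GSK3, rose by 0.28 ± 0.079 on the log2 scale (adjusted p = 0.024, edgeR) and *Csnk1g1* by 0.36 ± 0.10 (adjusted p = 0.024, edgeR), whereas *Csnk1g2* gave −0.16 ± 0.053 (adjusted p = 0.049, edgeR). The *Csnk1g2* call held in 9 of 29 alternatives and was lost, for one, without saline rat 9.

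Ligand genes and those for ligand secretion had a median log2 fold change of −0.16 over 22 tested, with 2 lower and 1 higher. *Wnt7a*, a neuronal Wnt known for presynaptic assembly, gave the smallest p of the named pathway genes. Its levels were 35.6 to 44.7 in LSD, median 39.8, against 44.3 to 55.1 in saline, median 46.8, so that 9 of 10 LSD rats were below every saline rat. The log2 fold change was −0.28 ± 0.054 (adjusted p = 0.0051, edgeR), and it was called in 29 of 29 alternatives. *Porcn*, the acyltransferase that lipidates Wnt proteins before secretion, gave −0.26 ± 0.081 (adjusted p = 0.033, edgeR). *Rspo2*, a secreted R-spondin that amplifies Wnt signalling, gave 0.26 ± 0.087 (adjusted p = 0.043, edgeR). *Wls*, the Wnt carrier gene, was level at 0.03 ± 0.105. The *Porcn* call held in 18 of 29 alternatives and that of *Rspo2* in 13, and both were lost without saline rat 9.

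Of 17 receptor genes 3 were lower and 0 higher by the TMM fit, and 1 lower and 2 higher when scaled by total counts. *Lrp5*, the paralogue of *Lrp6*, ranged from 21.2 to 29.5 in LSD, median 25.9, and from 24.4 to 42.6 in saline, median 34.1. All 10 LSD rats were below the saline median, and the log2 fold change was −0.39 ± 0.093 (adjusted p = 0.010, edgeR), called in 29 of 29 alternatives. The co-receptor pair thus gave values of opposite sign, *Lrp6* at 0.11 and *Lrp5* at −0.39, but this difference was not tested. The Frizzled genes *Fzd2* and *Fzd10* gave −0.35 ± 0.107 and −0.41 ± 0.138 (adjusted p = 0.030 and 0.047, edgeR). The *Fzd2* call held in 21 of 29 alternatives and the *Fzd10* call in 11, the latter being lost without saline rat 9.

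Of 17 inhibitor genes 2 were lower and 0 higher by TMM, against 0 lower and 1 higher by total counts. *Kremen1*, a receptor for Dickkopf inhibitors, gave −0.32 ± 0.090 (adjusted p = 0.023, edgeR), and *Nkd1*, an intracellular feedback inhibitor and itself a β-catenin target, gave −0.24 ± 0.069 (adjusted p = 0.024, edgeR). The secreted *Dkk3*, highest in level, was at 0.02 ± 0.079. Of 17 β-catenin target genes *Nkd1* was the 1 called and 0 were higher, and *Jun*, highest in level, was at 0.0050 ± 0.109.

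Nuclear partners of β-catenin showed 3 higher and 2 lower of 20. *Cdc73*, of the PAF complex that β-catenin recruits, gave 0.31 ± 0.078 (adjusted p = 0.014, edgeR), with 9 LSD rats above every saline rat. *Tbl1xr1*, of a corepressor exchange complex, gave 0.19 ± 0.056 (adjusted p = 0.027, edgeR), and *Pygo1*, a coactivator bound through BCL9, gave 0.32 ± 0.0999 (adjusted p = 0.034, edgeR). *Aes*, a short Groucho-family gene and highest in level, gave −0.19 ± 0.060 (adjusted p = 0.034, edgeR). The fifth call was *Ctnnbip1*, which encodes an inhibitor that blocks β-catenin from TCF factors, at −0.17 ± 0.056 (adjusted p = 0.040, edgeR), named after its value was seen. The *Pygo1*, *Aes* and *Ctnnbip1* calls held in 20 of 29, 15 of 27 and 15 of 29 alternatives and were lost without saline rat 9. Of 11 adherens junction genes *Afdn*, for the actin-linking protein afadin, was the 1 called, at 0.26 ± 0.075 (adjusted p = 0.023, edgeR), and *Ctnnd2*, highest in level, gave −0.05 ± 0.075.

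**Figure D3:**
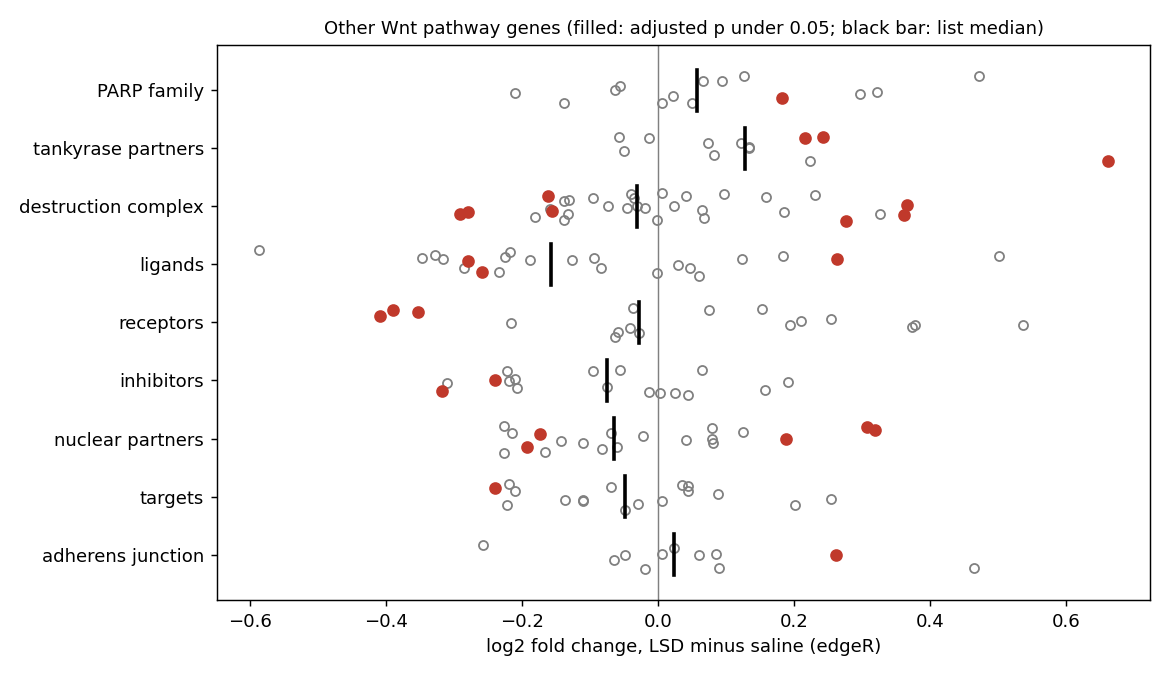
Log2 fold change of LSD over saline (x axis) for each tested gene of 9 Wnt pathway lists (y axis, points spread vertically for legibility). Filled points passed an adjusted p of 0.05 over all 16605 genes and black bars are list medians. By the TMM fit, all 3 called tankyrase partners lie above 0 and all 3 called receptors lie below it. The destruction complex has called genes on both sides. The receptor directions depended on scaling. By total counts *Lrp5* was still called lower, *Fzd2* and *Fzd10* were not called, and other receptors were called higher. Over all genes tested 6.48% were called higher and 8.54% lower, and the lists were not tested against these shares.

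Gene span was longer for the higher calls, and for the lower calls it was close to that of tested genes. The 12 pathway genes called higher had a median genomic span of 119741 bases in GRCr8, and the 12 of 13 called lower with a span had a median of 24474 bases, beside 24862 over tested genes. The long-gene index was 0.028 to 0.119 in LSD rats and −0.311 to 0.040 in saline rats, means 0.072 and −0.072, a difference of 0.145 (exact two-sided permutation test over 184756 splits, p = 2.17e-05). This difference was 0.118 without saline rat 9 (exact two-sided permutation test over 92378 splits, p = 4.33e-05). With offsets that remove the span trend in each library, 6 of the 12 higher genes and 7 of the 12 lower genes with a span were still called. Among the higher genes, the calls lost included *Usp25*, *Parp8*, *Rspo2*, *Tbl1xr1* and *Afdn*. Among the lower genes, they included *Frat2*, *Porcn*, *Fzd2* and *Fzd10*. Under those offsets *Tnks* had a log2 fold change of 0.25 ± 0.080 and *Apc* 0.32 ± 0.077, and *Gsk3b* had 0.11 ± 0.056. *Tcf7l2*, of 192891 bases, moved from −0.12 to −0.21 ± 0.086 and *Lrp6* from 0.11 to 0.03 ± 0.080.

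Within groups the members followed this index to different degrees, in 7 relations over 20 rats with each group centred on its mean. *Gsk3b* gave Pearson's r = 0.84 and Spearman's rho = 0.80 (permutation p = 6.0e-05 and 0.00013, adjusted 0.00042 and 0.00091), and r = 0.73 (permutation p = 0.0010, adjusted 0.0071) without saline rats 9 and 10, the rats farthest from the median index. *Apc* gave r = 0.77 and rho = 0.56 (permutation p = 0.0026 and 0.021, adjusted 0.0092 and 0.0501), so its rho was not past the threshold. Its pooled r fell to 0.40 (permutation p = 0.13) without those rats, whereas in saline alone it kept 0.83 without saline rat 9. For *Lrp6* r was 0.70 and rho 0.26 (permutation p = 0.021 and 0.27, adjusted 0.036 and 0.48), and its pooled r fell to 0.08 without those rats. *Tnks*, chosen partly for its covariation, is described without a test: r = 0.82 and rho = 0.57, and r = 0.43 without those rats. *Ctnnb1* gave r = 0.43 and rho = 0.09 (permutation p = 0.12 and 0.70), *Axin2* r = 0.22 and rho = −0.04 (permutation p = 0.34 and 0.86) and *Tcf7l2* r = −0.03 and rho = −0.07 (permutation p = 0.89 and 0.78), none past the threshold.

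In saline rats alone (n = 10) *Apc*, *Gsk3b* and *Lrp6* had r with the index of 0.94, 0.91 and 0.87 (permutation test, adjusted p = 0.0020, 0.0020 and 0.028). Without saline rat 9 these were 0.83, 0.81 and 0.54, given as a description. In LSD rats alone (n = 10) the same genes had r = −0.25, 0.51 and −0.34 (permutation test, adjusted p = 0.54, 0.26 and 0.43). The difference between groups in these relations was not tested. What part the index has in the members' LSD values was not tested beyond the offsets above.

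**Figure D4:**
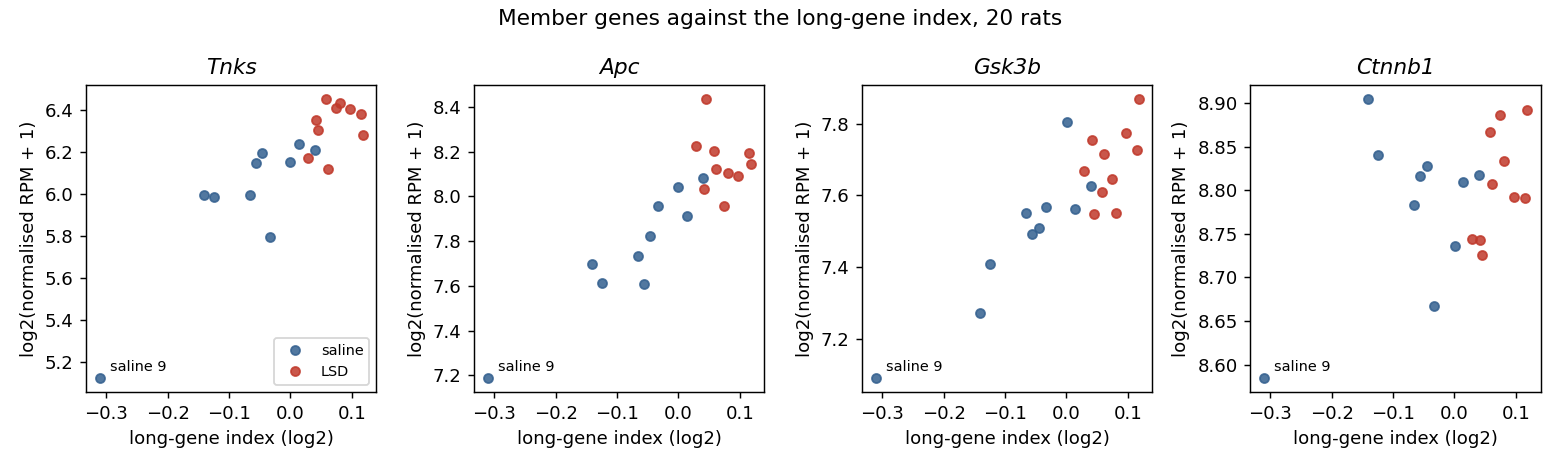
Log2(normalised RPM + 1) of *Tnks*, *Apc*, *Gsk3b* and *Ctnnb1* (y axes) against the long-gene index of the rat (x axes, log2 units), each point 1 rat. Saline rat 9, at −0.311, is the lowest point in every panel, and *Ctnnb1* shows little relation among the other rats.

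The members were also compared with each other across rats, as a description, since rats share depth and tissue differences that enter every pair. In saline 19 of 21 pairs of tested members correlated positively with a median r of 0.38, and 7 pairs exceeded 0.7. In LSD 11 of 21 were positive with a median of 0.02, and 0 exceeded 0.7. Without saline rat 9 the saline median was 0.23 and 1 pair exceeded 0.7, so most of the strong saline pairs rested on that rat. Within LSD *Gsk3b* ran against *Lrp6* (r = −0.78) and *Axin2* (r = −0.71), whereas in saline these pairs had r = 0.80 and 0.38, or 0.52 and 0.0023 without saline rat 9.

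**Figure D5:**
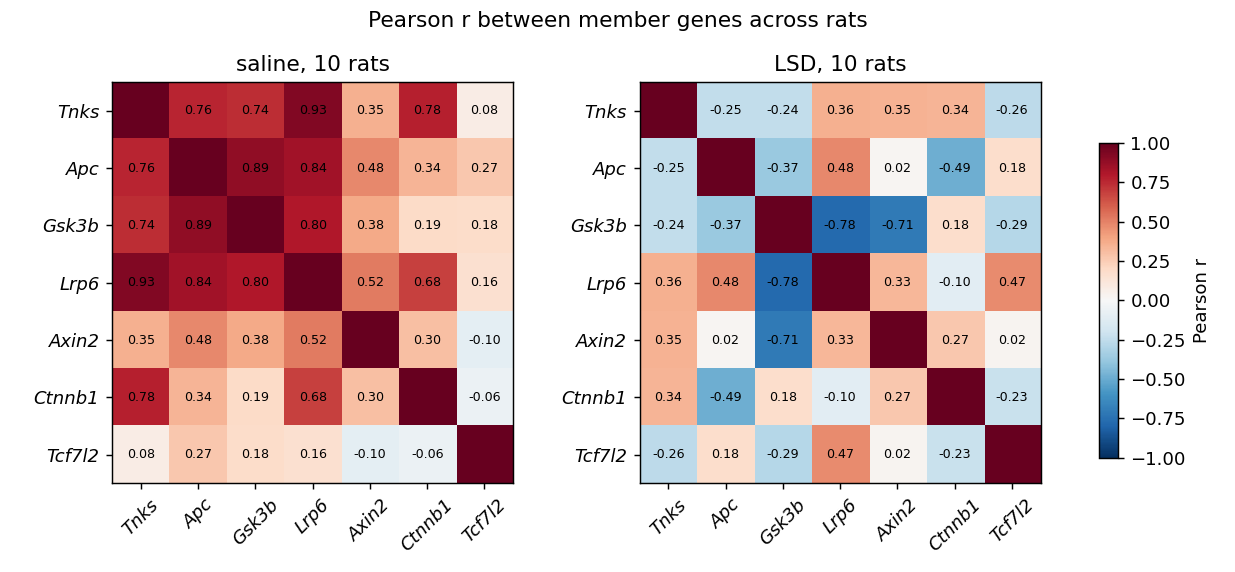
Pearson r between the levels, log2(normalised RPM + 1), of the 7 tested members (both axes), in 10 saline rats (left) and 10 LSD rats (right). *Tnks* and *Lrp6* reach 0.93 in saline and 0.36 in LSD, and *Tcf7l2* and *Tnks* 0.08 in saline. These saline values were 0.67 and 0.52 without saline rat 9.

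*Tnks* was most like *Lrp6* among members over the 20 centred rats (r = 0.84), followed by *Ctnnb1* (0.68), *Apc* (0.62), *Gsk3b* (0.59), *Axin2* (0.30) and *Tcf7l2* (−0.02). Without saline rat 9 these were 0.52, 0.37, 0.05, 0.10, 0.0032 and 0.13, and the values of *Apc* and *Gsk3b* then lay close to 0. When each rat's index was removed by regression, the r of *Tnks* with *Apc* was −0.06 and with *Gsk3b* −0.35, while *Lrp6* kept 0.65 and *Ctnnb1* 0.63.

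Over all 16604 other genes tested, the 5 outside the members with the highest r to *Tnks* were *Fzd3*, *Erbb4*, *Arfgef3*, *Smcr8* and *Nhsl2*. *Fzd3*, a Frizzled receptor known for axon guidance, had r = 0.96, and 0.88 without saline rat 9, and was as close within LSD (0.90) as within saline without that rat (0.90). Its level was 22.9 to 38.1 normalised RPM in LSD and 8.91 to 29.6 in saline, or 0.38 ± 0.147 on the log2 scale, which did not pass (adjusted p = 0.082, edgeR). *Erbb4*, the neuregulin receptor gene of interneurons, had r = 0.96, and 0.87 without that rat, and a log2 fold change of 0.56 ± 0.131. *Arfgef3*, *Smcr8* and *Nhsl2* each had r = 0.95, and 0.86, 0.82 and 0.87 without it. *Tcf4* ranked 225 of 16604 with r = 0.83, and 0.78 without saline rat 9, with a log2 fold change of 0.16 ± 0.084. Many genes followed *Tnks*: 321 had r above 0.8 and 13.1% had r above 0.5, with a median of 0.19 in the third of genes with the longest span and −0.15 in the third with the shortest.

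Marker sums moved with some members from rat to rat. Over the 20 centred rats *Tnks* had r = 0.62 with the summed cortical layer markers, 0.63 with those of newly formed oligodendrocytes and −0.50 with the striatal sum. With newly formed oligodendrocyte markers the other members had r of 0.57 (*Lrp6*), 0.54 (*Apc*), 0.50 (*Gsk3b*), 0.42 (*Ctnnb1*), 0.41 (*Tcf7l2*) and 0.05 (*Axin2*). The markers of this list differed in direction. *Itpr2* and *Tmem2* had log2 fold changes of 0.27 and 0.14, against −0.05, −0.18 and −0.24 for *Gpr17*, *Enpp6* and *Bmp4*. *Neu4* had 0 reads, and the sum is not read as a measure of that cell type. *Ctnnb1* had r = 0.61 with cortical layer markers, −0.65 with striatal and −0.58 with mature oligodendrocyte markers. *Tcf7l2*, known in oligodendrocytes and in the thalamus, had r = 0.63 with oligodendrocyte precursor markers, 0.41 with newly formed and 0.31 with mature ones. It had r = 0.31 with thalamic markers, of which the defining *Gbx2* was near 0 at 0.059 RPM. Other sums gave 0.54 (choroid plexus), −0.52 (neuron), 0.36 (astrocyte) and 0.32 (striatum), so its r was not particular to those cell types. *Apc* had r = 0.60 with precursor markers. Their part in the LSD values was not tested.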

How the data were processed

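RNA-seq libraries from 20 rats, 10 a group, were used. Per the labels and the study's methods, the authors trimmed reads, aligned them to rn6 with HISAT2 and obtained raw counts per gene with HTSeq; versions, annotation release and strand setting are not given in the sources used here. The deposited matrix holds 31038 genes and 5 rows that name no gene (25.5% to 29.0% of a library), which were left out. It holds no other per-sample columns.

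The study's filter (a minimum of 5 reads in 10 or more rats) was kept, and the remaining genes were tested with edgeR 4.0.16 (quasi-likelihood F test, TMM, Benjamini-Hochberg over 16605 genes, threshold 0.05) in R 4.3.3. SEs were taken from the fold change and its F statistic. Members and lists were chosen with earlier results of these data known. Genes named from each list were all called genes if 4 or fewer, otherwise the 4 of smallest p, plus that of highest level; those most like *Tnks* were the 5 of highest r, and *Tcf4* was named for its own r. The index used the 4754 longest and 4754 shortest genes by RefSeq GRCr8 span, members left out, and correlations used log2(RPM + 1) and 100000 permutations within groups. Of 16605 genes 85.9% had a span. The scripts were tested on simulated data. DESeq2 1.42.0, other scalings and filters, span offsets, a replicate block, drawing reads down to 11098076 a library and leaving out each rat were tried as alternatives. Rat replicate numbers named samples and were not taken to pair them. P-values measure the spread between these rats. Depth was 11098076 to 25552681 reads, so intervals for low genes are limited by counting.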

Additional observations from a re-analysis of the deposited data

Results flagged for a closer look

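In groups of 10 rats a value counts as far from the others when its gap to the nearest rat is large against the group's range by Dixon's 95% limit. Of 16 groups examined, for 7 members and the long-gene index in each treatment, 4 were so marked. The limit marks about 1 in 20 single groups by chance. The groups share the same rats, so the 4 are not set against that rate. The *Tnks* level of saline rat 9 was 33.8 normalised RPM, the lowest of its group, and its *Lrp6* level was 17.5, also the lowest. The long-gene index of the same rat was −0.311. The *Apc* level of LSD rat 10 was 345, the highest of its group. Whether these rats differ for technical or biological reasons was not tested.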

How the results depend on the processing

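No member in the fit changed direction under the 29 alternatives, which is no support for *Tnks* or *Apc*, since the contrast chose the members. For all genes, 538 were higher with span offsets, and 858 were lower when scaled by total counts and 836 with no filter on low counts. Leaving out 1 rat gave 663 to 1669 higher, lowest without LSD rat 8 and highest without saline rat 2. For the wider pathway lists, 20 were higher and 5 lower by total counts, 7 higher with span offsets and 6 lower with no filter. Leaving out 1 rat gave 8 to 19 higher, highest without saline rat 10, and 7 to 20 lower, highest without saline rat 2. Among the 25 called pathway genes, the largest numbers of calls were lost without saline rat 4 (4 of 12 higher, 6 of 13 lower) and LSD rat 8 (3 and 6). By total counts the index r of *Ctnnb1* was 0.49 and of *Tcf7l2* 0.00812. Leaving out 1 rat, index r ranged from 0.46 to 0.87 for *Tnks*, 0.51 to 0.86 for *Apc*, 0.21 to 0.74 for *Lrp6*, −0.0939 to 0.28 for *Axin2*, −0.12 to 0.58 for *Ctnnb1* and −0.17 to 0.0714 for *Tcf7l2*. Saline rat 9 gave the value farthest from the full one for *Tnks*, *Apc*, *Lrp6*, *Axin2* and *Ctnnb1*. With the index removed, the r of *Tnks* was −0.0574 with *Apc* and −0.35 with *Gsk3b*. Low levels limit *Tnks2* and *Lnpep*. The causes were not tested.

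The labels name no pairing of rats by replicate number, and whether the numbers mark one was not tested. Same-numbered rats had a mean correlation of 0.15, from −0.26 to 0.47, beside −0.016 between rats of different number. Of the same-numbered pairs 6 of 10 were over 0.1, and 1 LSD and 2 saline rats correlated best with their own number. With the replicate block 1355 genes were higher and 1606 lower, *Tnks* had a log2 fold change of 0.35, *Apc* 0.39 and *Gsk3b* 0.20, now called. The block gave index r of 0.50 for *Axin2* and 0.21 for *Tcf7l2*, and r = 0.57 between *Tnks* and *Tcf7l2*.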
